A study of Rattus norvegicus with 91 samples.

Results

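The genes described here make, load, clear and receive GABA, the main inhibitory transmitter of the brain, in the ventral tegmental area of rats bred for high or low alcohol drinking. They are Gad1, Gad2, Slc32a1, Slc6a11, Abat, Gabbr1, Gabbr2 and Gphn, and every probe set annotated to exactly 1 of these symbols was taken. That gave 16 probe sets of 8 genes, among 31042 probe sets and 14217 genes with a single-gene probe set. Of the 16 probe sets, 13 reached the floor on dim signals and were tested, among 20892 tested in all.

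Each of 91 rats gave 1 Affymetrix array of ventral tegmental area RNA, and the values are log2 signals. The lines form 5 pairs, each with a line selected for drinking much alcohol, given first, and a line selected for drinking little. The pairs comprised 8 HAD1 and 10 LAD1, 8 HAD2 and 9 LAD2, 9 P and 10 NP, 10 AA and 10 ANA, and 8 sP and 9 sNP. HAD1/LAD1 and HAD2/LAD2 are replicate selections of the same kind. The labels give no sex, age, drug or alcohol treatment, so the lines are known here by their breeding alone. Each line is 1 closed breeding population, and the p-values measure the spread between its animals. Signals of different pairs stand on scales that were not shown to match, so every comparison is between the high and the low line of 1 pair.

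GABA is made from glutamate by glutamate decarboxylase, whose GAD67 and GAD65 forms are encoded by Gad1 and Gad2, and is packed into synaptic vesicles by the transporter VGAT, encoded by Slc32a1. After release it is taken up by transporters such as GAT-3, encoded by Slc6a11 and found mainly in astrocytes, and broken down by GABA transaminase, encoded by Abat. The GABA-B receptor is a G protein-coupled dimer of the Gabbr1 and Gabbr2 proteins, while gephyrin, encoded by Gphn, is the scaffold that holds GABA-A and glycine receptors at inhibitory synapses. In the ventral tegmental area, GABA neurons lie among the dopamine neurons and inhibit them. The tissue is bulk, so fewer cells of a type and less RNA per cell cannot be told apart.

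The array distributions, divided by clustering into 5 sets, followed the labelled pairs except for 3 arrays. The array labelled AA 1 lay with the P and NP arrays, and those labelled AA 19 and ANA 20 lay with the sP and sNP arrays. At the 50 probe sets that best separated the lines of a pair without the array in question, LAD1 37 was nearer the HAD1 mean at 50. By the same count AA 5 was nearer the ANA mean at 41, AA 19 at 42, and ANA 20 nearer the AA mean at 43. Over the P and NP arrays the count nearer the other line ran from 17 to 44, and over the sP and sNP arrays from 18 to 42. It therefore could not check the labels of single arrays in P/NP and sP/sNP. Whether the labels of any of these arrays match their animals was not tested. Values without LAD1 37, without AA 5, or without AA 1, AA 19 and ANA 20 stand beside the results of HAD1/LAD1 and AA/ANA. The fits of gene lists without these arrays were chosen after seeing the data. In them, 1384 of all tested probe sets were called in HAD1 minus LAD1 without LAD1 37, against 877 with it. In AA minus ANA 1021 were called without AA 1, AA 19 and ANA 20 and 534 without AA 5, against 362 with all arrays. The mean level of dopamine neuron markers ran between 8.27 and 13.3 in P arrays and between 9.02 and 13.2 in NP arrays, while it stayed between 12.1 and 13.7 in every other line.

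The 5′ flanks are shown for the 3 GABA neuron genes, whose signals were correlated across animals in P/NP. Both receptor genes are shown too. Their brightest probe sets had the lowest adjusted p of the members in HAD2 minus LAD2, without a call. Abat, the member called in AA minus ANA, had no promoter sequence in the source used, so its flank is not shown. The sequences are RefSeq's, build GRCr8, written 5′ to 3′ along the strand of the gene, and end at the base before the annotated start or, for Gad1 and Gabbr1, before the start of the whole annotated gene. Capitals mark matches, on either strand, of 4 motifs: the TATA box searched as TATAAA, the CCAAT box by its letters, the GC box as GGGCGG and the cAMP response element as TGACGTCA. They lie at chr3:75777202-75777259 on the plus strand (Gad1), chr17:89671468-89671717 on the plus strand (Gad2), chr3:167686995-167687244 on the plus strand (Slc32a1), chr20:1499353-1499486 on the minus strand (Gabbr1) and chr5:66083696-66083945 on the minus strand (Gabbr2).
Gad1: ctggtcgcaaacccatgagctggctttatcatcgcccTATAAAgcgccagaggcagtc
Gad2: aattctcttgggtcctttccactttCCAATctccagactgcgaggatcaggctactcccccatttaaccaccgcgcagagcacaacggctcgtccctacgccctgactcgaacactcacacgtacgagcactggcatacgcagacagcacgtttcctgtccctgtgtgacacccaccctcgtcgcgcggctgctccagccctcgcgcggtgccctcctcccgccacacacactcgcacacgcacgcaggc
Slc32a1: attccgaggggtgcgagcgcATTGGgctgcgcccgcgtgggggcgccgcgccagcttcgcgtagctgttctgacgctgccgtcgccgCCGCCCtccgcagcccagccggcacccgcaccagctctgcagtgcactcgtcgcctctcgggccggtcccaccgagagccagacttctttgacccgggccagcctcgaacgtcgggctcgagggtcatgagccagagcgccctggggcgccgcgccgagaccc
Gabbr1: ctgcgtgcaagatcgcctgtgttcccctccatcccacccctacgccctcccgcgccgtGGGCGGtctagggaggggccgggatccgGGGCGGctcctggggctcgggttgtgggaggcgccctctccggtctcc
Gabbr2: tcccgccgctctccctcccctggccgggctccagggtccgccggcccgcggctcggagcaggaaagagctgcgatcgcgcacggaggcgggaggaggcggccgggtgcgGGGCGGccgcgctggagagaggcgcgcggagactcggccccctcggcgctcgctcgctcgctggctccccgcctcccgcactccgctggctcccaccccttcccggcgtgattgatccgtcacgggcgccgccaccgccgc
The Gad1 stretch of 58 bases held 1 TATAAA. Of 33469 annotated promoters, 3.24% hold it in the first 58 of the 250 bases before their annotated start. That share is not for the bases next to a start. Gad2 and Slc32a1 each held 1 CCAAT, found in 34% of promoter stretches of 250 bases, and Slc32a1 and Gabbr2 each held 1 GGGCGG, found in 30.5%. The 134 bases of Gabbr1 held 2 GGGCGG, a motif that 14.3% of promoters hold in the first 134 of those 250 bases. None of the 5 stretches held the cAMP response element, which 1.59% of the 250-base stretches hold. CpG dinucleotides numbered 22 for Gad2, 34 for Slc32a1 and 39 for Gabbr2 in the 250 bases. These matches describe letters only.

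The comparison of the lines within each pair asks whether GABA genes differ between animals bred in opposite directions. Of the 8 genes, Slc6a11 had no tested probe set. Calls were made by limma with Benjamini-Hochberg adjustment over all tested probe sets and a threshold of 0.05. Across the other genes, 1 difference was called in 1 pair. This was Abat, higher in AA than in ANA. In HAD1 minus LAD1, where 4.20% of all tested probe sets were called (2.26% higher and 1.93% lower), 0 of the 13 were, and 1 had an unadjusted p under 0.05, as 15.3% of all did. In HAD2 minus LAD2, where 6.30% were called (3.33% higher and 2.97% lower), 0 of the 13 were, and 3 had an unadjusted p under 0.05, as 16.3% of all did. In AA minus ANA, where 1.73% were called (0.799% higher and 0.933% lower), 1 of the 13 was called, and 2 had an unadjusted p under 0.05, as 12.7% of all did. These shares of all tested probe sets are the background for the gene lists below. In P minus NP and in sP minus sNP, 0% of all tested probe sets were called, and 0 and 1 of the 13 had an unadjusted p under 0.05, against 1.28% and 3.64% of all. The median difference of the 13 was -0.05 in HAD1 minus LAD1, 0.02 in HAD2 minus LAD2, 0.08 in P minus NP, -0.01 in AA minus ANA and -0.02 in sP minus sNP, beside a median within 0.01 of 0 for all tested probe sets in each pair. No member separated the lines of a pair without overlap, which 2.03% of all tested probe sets did in HAD2 minus LAD2, 0.211% in HAD1 minus LAD1, 0.0287% in AA minus ANA, 0.00479% in sP minus sNP and 0% in P minus NP.

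**Figure D1:**
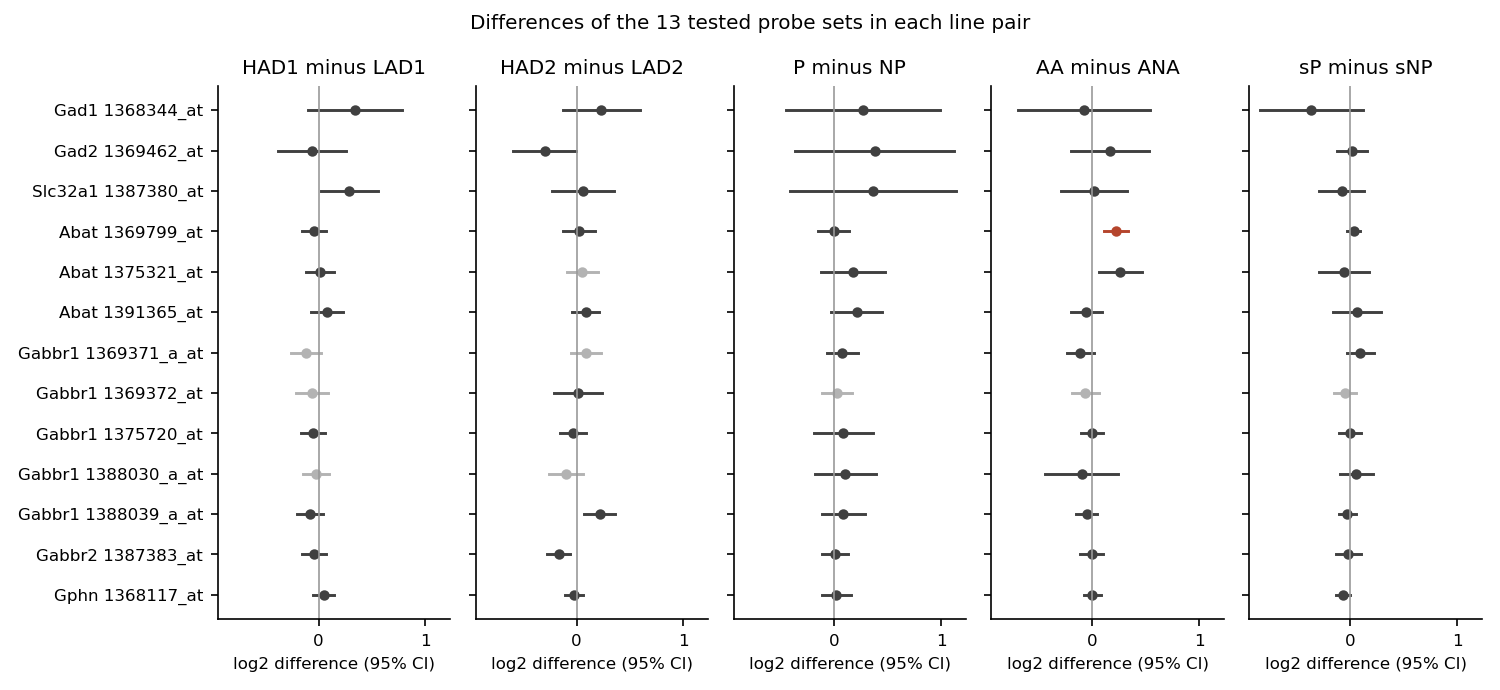
Log2 difference, high minus low line, of the 13 tested probe sets (rows) in the 5 line pairs (columns), with 95% confidence intervals from limma. The called difference, Abat in AA minus ANA, is drawn in red, and pale points lie below the floor of their pair. The widest intervals are those of Gad1, Gad2 and Slc32a1 in P minus NP.

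Gad1, the decarboxylase gene that sets most of the basal GABA supply, was read by 1 bright probe set. A second Gad1 probe set stayed below the floor in every pair and was not tested. In HAD1 the Gad1 signal ran from 12.88 over a median of 13.44 to 13.75, and in LAD1 from 12.29 over 12.94 to 13.87. The LAD1 animals spread over the whole HAD1 range, and the highest of them was LAD1 37. The difference was 0.34 ± 0.21 (log2, HAD1 minus LAD1, standard error), adjusted p 0.491 by limma, and 0.43 with an adjusted p of 0.236 without LAD1 37. In HAD2 it ran from 12.76 over 13.20 to 13.92 and in LAD2 from 12.30 over 13.10 to 13.54, a difference of 0.23 ± 0.17. The direction was the opposite in the arrays labelled sP, which averaged 12.65 ± 0.63 (SD), against 13.01 ± 0.40 in those labelled sNP, a difference of -0.37 ± 0.23. In the arrays labelled AA and ANA Gad1 averaged 12.54 ± 0.78 and 12.62 ± 0.65 (SD), a difference of -0.08 ± 0.30, and -0.14 without AA 1, AA 19 and ANA 20 or -0.18 without AA 5. None of these Gad1 differences was called, and whether they differ between pairs was not called either (F 1.07, adjusted p 0.754 by limma).

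Gad2, the membrane-associated decarboxylase of nerve terminals, showed its lowest unadjusted p in HAD2 minus LAD2. Its signal ran from 8.02 over a median of 8.39 to 8.64 in HAD2, against 8.18 over 8.72 to 9.26 in LAD2. All HAD2 animals lay within or below the LAD2 range. The difference was -0.30 ± 0.14, with an unadjusted p of 0.0479 and an adjusted p of 0.300 by limma. In HAD1 minus LAD1 the Gad2 difference was -0.06 ± 0.15, and in sP minus sNP it was 0.02 ± 0.07.

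Slc32a1, which loads GABA into vesicles, had its lowest unadjusted p in HAD1 minus LAD1. The signal ran from 9.16 over a median of 9.57 to 9.70 in HAD1, against 8.87 over 9.15 to 9.88 in LAD1. LAD1 animals held both the lowest and the highest values of the pair. The difference was 0.29 ± 0.13, with an unadjusted p of 0.0351 and an adjusted p of 0.274 by limma. Without LAD1 37 it was 0.33, adjusted p 0.136. In HAD2 minus LAD2 it was 0.06 ± 0.14 and in AA minus ANA 0.01 ± 0.15, or 0.07 without AA 1, AA 19 and ANA 20. Of 7 tested dopamine neuron markers, with a median difference of -0.05 in HAD1 minus LAD1, Ddc, a dopamine synthesis enzyme, was called lower in HAD1 (-0.69 ± 0.15, adjusted p 0.0115 by limma, and -0.72 without LAD1 37). The other markers of non-GABA cells called there were Cx3cr1 (-0.33), Abcb1a (-0.53), Tek (0.39) and Mobp (0.30), each called without LAD1 37 too, when the vascular Cldn5 was called as well (0.24, adjusted p 0.0264 by limma). With all arrays, the median difference was -0.07 over the 6 microglia markers. It was 0.04 over the 6 endothelium and pericyte markers and 0.06 over the 6 oligodendrocyte markers. The Gapdh 3′ minus 5′ signal averaged 1.89 in HAD1 and 1.78 in LAD1. The part of these in the Gad1 and Slc32a1 values was not tested.

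Gad2 and Slc32a1 gave their largest differences in P minus NP, where the spread of all 3 GABA neuron genes was widest. Gad1 averaged 12.73 ± 0.74 in P and 12.46 ± 0.85 in NP (SD, 9 and 10 arrays). Gad2 averaged 10.33 ± 0.74 in P and 9.95 ± 0.89 in NP, and Slc32a1 10.38 ± 0.74 in P and 10.02 ± 0.96 in NP. The differences were 0.27 ± 0.35, 0.38 ± 0.36 and 0.36 ± 0.37 for Gad1, Gad2 and Slc32a1, each with an adjusted p of 0.999 by limma. Both lines held an array with little of the dopamine neuron gene Th: in P 10 it lay -4.12 and in NP 8 -4.71 log2 units from the mean of its line. P 10 had the highest Gad1 (14.33), Gad2 (12.02) and Slc32a1 (12.09) signal of the pair. NP 8 had the lowest Gad2 (7.96) and Slc32a1 (8.33) signal. Without these 2 arrays, a setting chosen after seeing the data, the differences were -0.02 for Gad1, -0.05 for Gad2 and -0.04 for Slc32a1, so the sign of all 3 rested on them.

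**Figure D2:**
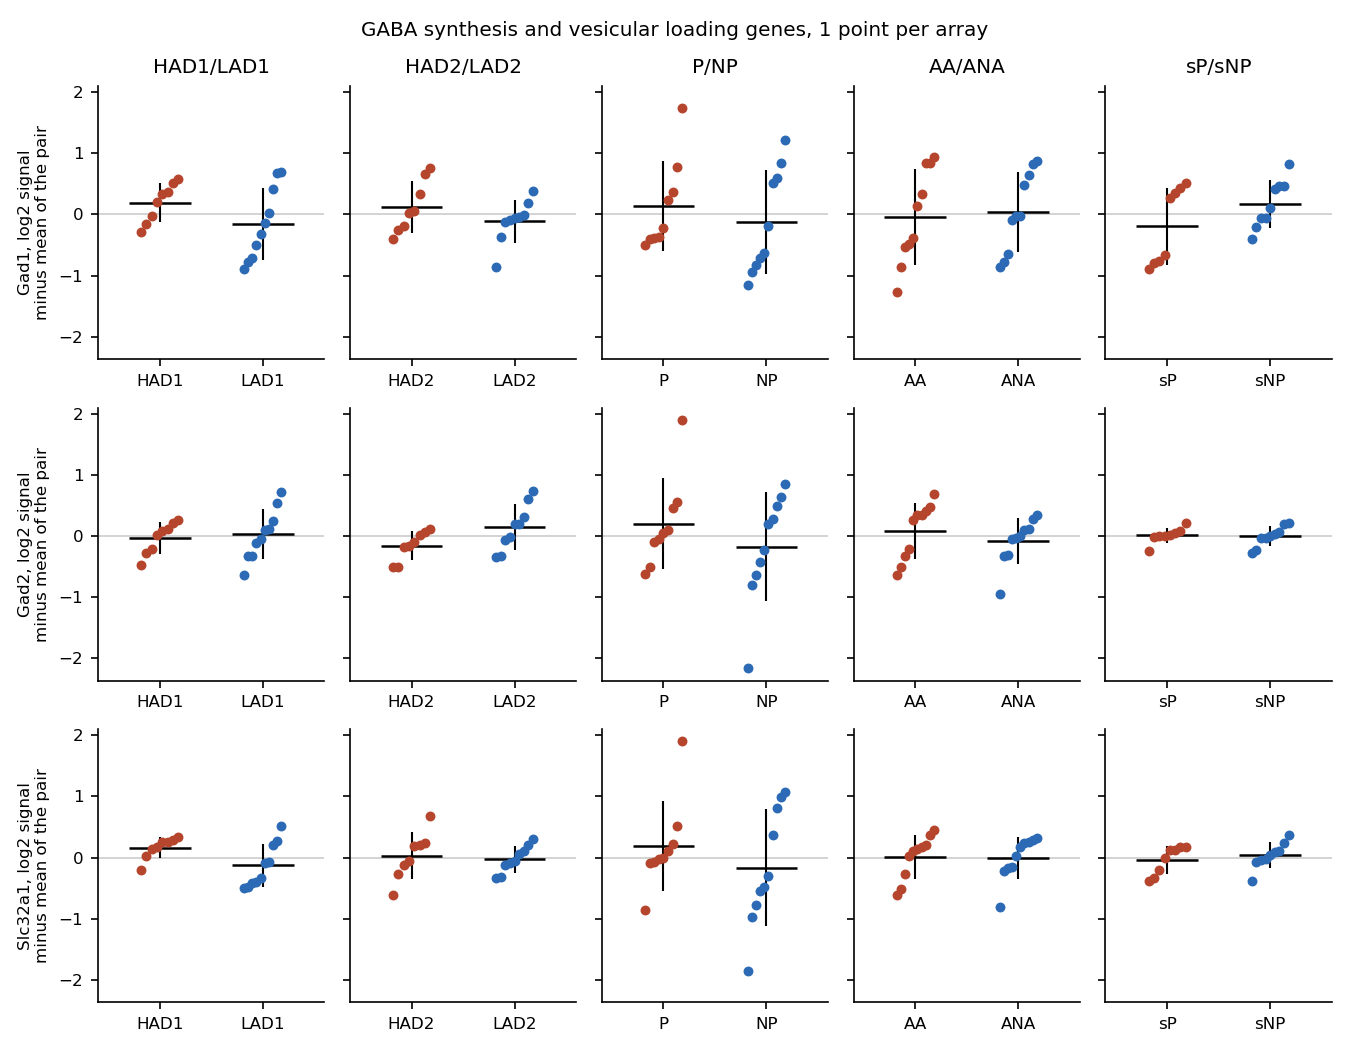
Log2 signal of Gad1, Gad2 and Slc32a1 (rows) on each array, minus the mean of all arrays of the pair, for the 5 line pairs (columns), the high line in red on the left and the low line in blue on the right. Black bars give the mean and the standard deviation of a line. The lines overlap in every panel, and the array labelled P 10 stands at the top of the P column in all 3 rows.

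The spread between animals of 1 line was itself high for these genes. The residual standard deviation of Gad1 was 0.49 in HAD1/LAD1, 0.39 in HAD2/LAD2, 0.80 in P/NP, 0.72 in AA/ANA and 0.52 in sP/sNP, against a median of all tested probe sets between 0.12 and 0.19. Gad1 thus lay between percentiles 97.2 and 99.3 of spread in all 5 pairs. Slc32a1 lay between percentiles 89.5 and 98.1 and Gad2 between 69.1 and 97.9. Gphn was among the least variable members, with a residual standard deviation of 0.047 to 0.14, between percentiles 1.3 and 29.2. The brightest Abat, Gabbr1 and Gabbr2 probe sets lay at or below percentile 59.6 in all 5 pairs.

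**Figure D3:**
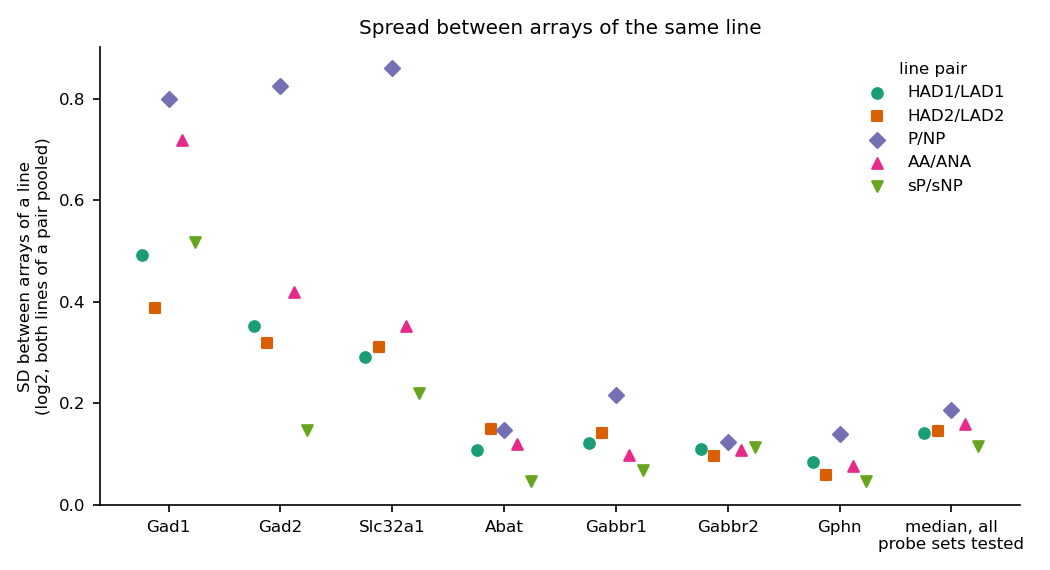
Standard deviation between arrays of the same line (log2, both lines of a pair pooled) for the brightest tested probe set of 7 genes and, at the right, the median over all tested probe sets. Symbols give the line pair. Gad1 lies between 0.39 and 0.80, and the medians lie between 0.12 and 0.19.

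Within a line, animals with more Gad1 also tended to have more Slc32a1 signal, as measured on deviations from the line mean. In HAD1/LAD1, Pearson's r was 0.912 and Spearman's rho 0.907 over 18 animals (permutation p 2e-05 for each, adjusted 0.00025 over the 25 relations computed). Without LAD1 31 and LAD1 37, the arrays farthest from the Gad1 median, r was 0.867. In P/NP, r was 0.835 and rho 0.774 over 19 animals (permutation p 0.0001 and 0.0007, adjusted 0.000833 and 0.00583), and r was 0.719 without P 10 and NP 10. In HAD2/LAD2, r was 0.621 and rho 0.620 over 17 animals, which missed the threshold after adjustment (permutation p 0.0123 and 0.0157, adjusted 0.0617 and 0.0783), and r was 0.560 without HAD2 9 and LAD2 20. In sP/sNP, r was 0.584 and rho 0.547 over 17 animals (permutation p 0.0247 and 0.0384, adjusted 0.103 and 0.160), and r was 0.456 without sNP 1 and sP 8. In AA/ANA, r was -0.070 and rho 0.143 over 20 animals (permutation p 0.777 and 0.560, adjusted 0.809 and 0.677), and r was 0.0965 without AA 9 and AA 19. AA 19 and ANA 20, which stood apart in their distributions, had high Gad1 with low Slc32a1, and without them and AA 1 the r was 0.539 and rho 0.551 over 17 animals (permutation p 0.0319 and 0.0285, not adjusted, chosen after seeing the data).

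**Figure D4:**
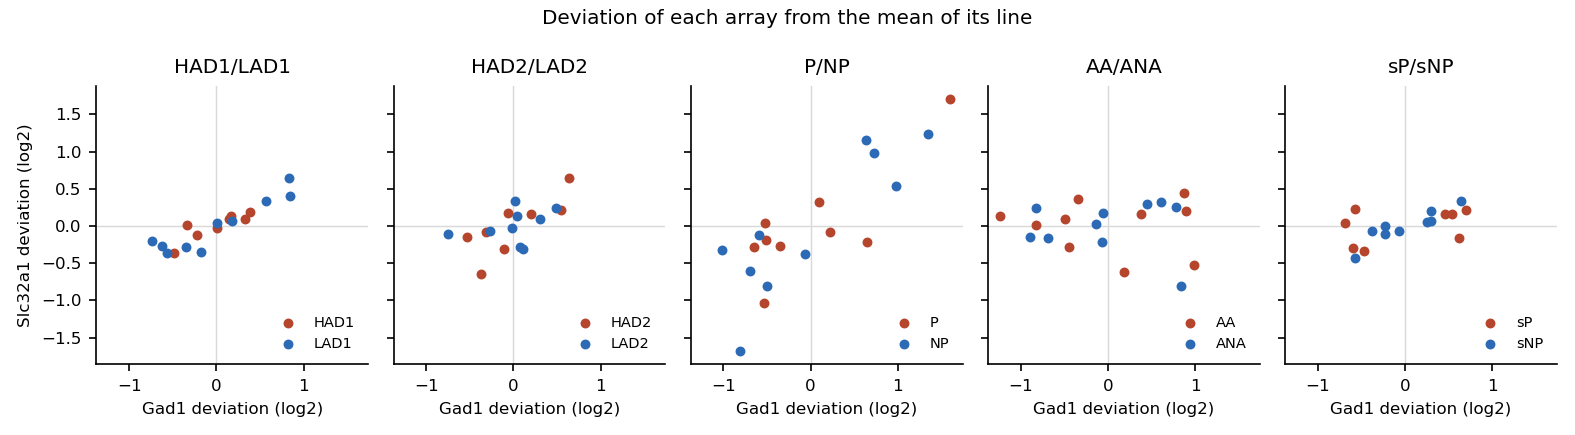
Deviation of each array from the mean of its line, Gad1 on the horizontal and Slc32a1 on the vertical axis (both log2), in the 5 line pairs, the high line in red and the low line in blue. The points follow a rising line in HAD1/LAD1 (r 0.912) and P/NP (r 0.835) and not in AA/ANA (r -0.070).

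The relations of Gad2 to the other genes passed the threshold in P/NP. With Slc32a1, its r was 0.932 and rho 0.863 in P/NP (permutation p 1e-05, the smallest that the resamples can give, and 2e-05, adjusted 0.00025 for each), and 0.880 without P 10 and NP 8. With Gad1, it was 0.696 and rho 0.626 in P/NP (permutation p 0.00144 and 0.00657, adjusted 0.0090 and 0.0411), and 0.548 without P 10 and NP 10. In the other 4 pairs neither relation passed the threshold after adjustment, with r between -0.214 and 0.440. In AA/ANA, where Gad2 with Slc32a1 had r 0.193, leaving out AA 1, AA 19 and ANA 20 gave r 0.676 and rho 0.699 over 17 animals (permutation p 0.00267 and 0.00269, not adjusted, chosen after seeing the data). Gad1 with Gad2 had r 0.440 there and 0.433 without those arrays. Of the 10 relations of Gad1 or Slc32a1 with Th, computed as a check of the dissection, none passed, with r between -0.503 and 0.450. Without the arrays farthest from the Gad1 or Slc32a1 median, r with Th ran from -0.528 to 0.558. The lowest was Gad1 in AA/ANA without AA 9 and AA 19, at -0.272 with all arrays. The highest was Slc32a1 in P/NP without P 10 and NP 8, at 0.280 with all arrays.

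The genes most like Gad1 across animals, ranked by the mean over the 5 pairs of r on deviations from the line mean among 10887 genes, were Penk at 0.891 (0.800 to 0.950 over the pairs), Pnoc at 0.861 and Sorcs1 at 0.860. Penk encodes the opioid precursor proenkephalin and Pnoc the precursor of nociceptin. For Slc32a1 they were Zmynd11 at 0.707, Dlg4, the postsynaptic density protein PSD-95, at 0.702 and Srrm1 at 0.690. Gad2 had no gene as close, with Rhob at 0.508 first. These values are a description, with no test, of signals that share the array, the dissection and the RNA of each animal. For the remaining members, the first genes were Tmem223 for Abat (0.667), Usp11 for Gabbr1 (0.743), Lrp8 for Gabbr2 (0.655) and Cntnap2 for Gphn (0.643).

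Other markers of midbrain GABA neurons were read beside them, Penk and Pnoc included. Of 18 listed genes, among them Gata2, Gata3 and Tal1, which specify these neurons, 12 were tested and 0 were called by limma in each of the 5 pairs. Unadjusted p under 0.05 was reached by 2 in HAD1 minus LAD1, by 1 in HAD2 minus LAD2, by 0 in P minus NP, by 1 in AA minus ANA and by 1 in sP minus sNP. Their median difference was 0.22 in HAD1 minus LAD1 with 11 of 12 above 0, and 0.18 in HAD2 minus LAD2 with 10 of 12 above 0. In P minus NP it was -0.14, in AA minus ANA -0.07 and in sP minus sNP 0.03. The markers are not independent readings, as Penk and Pnoc both followed Gad1 across animals, and the counts of signs were not tested. Without LAD1 37, 2 of the 12 were called higher in HAD1: Tal1 (0.50 ± 0.14, adjusted p 0.0363 by limma) and Zfpm2 (0.40 ± 0.12, adjusted p 0.0423 by limma), with a median difference of 0.26. Tal1 is a transcription factor and Zfpm2 a cofactor of GATA factors. Without AA 1, AA 19 and ANA 20, and without AA 5, 0 of the 12 were called in AA minus ANA by limma, with 2 and 1 at an unadjusted p under 0.05.

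Slc6a11, the astrocytic GABA transporter, gave a dim signal. Its single probe set lay between 5.09 and 7.43 over all 91 arrays, its mean was below the floor in all 5 pairs (floors 6.89 to 7.11), and it was not tested. In AA it averaged 6.36 ± 0.24, against 6.27 ± 0.20 in ANA (SD).

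Abat, the mitochondrial transaminase that breaks GABA down, was the called member. Its brightest of 3 probe sets ran from 9.31 over a median of 9.59 to 9.77 in the 10 arrays labelled AA, against 9.17 over 9.37 to 9.58 in the 10 labelled ANA. The lines overlapped through AA 19, the lowest AA array, and ANA 6, the highest ANA array, while the other AA arrays all lay above the other ANA arrays. Abat averaged 9.58 ± 0.12 in AA and 9.36 ± 0.12 in ANA (SD), a difference of 0.22 ± 0.05 (standard error), or 1.17-fold, with an adjusted p of 0.0400 by limma. The second Abat probe set of the plotted 3 had the same sign (0.26 ± 0.10, adjusted p 0.223), and the third did not (-0.06 ± 0.07, adjusted p 0.807). Without the 3 arrays that stood apart the difference was 0.23, adjusted p 0.00674 by limma, and without AA 5 it was 0.21, adjusted p 0.0499. The call was lost without any 1 of 13 of the 20 arrays, with an adjusted p between 0.00640 (without AA 19) and 0.0790 (without ANA 8), and it was lost when all probe sets were tested without a floor (0.0552), after quantile normalization (0.0511) and for the mean of the Abat probe sets (difference 0.14, adjusted p 0.220).

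The brightest Abat probe set differed by 0.05 or less between the lines of the other 4 pairs. In HAD1 it averaged 9.64 ± 0.12, against 9.68 ± 0.10 in LAD1. In HAD2 it averaged 9.36 ± 0.16, against 9.34 ± 0.14 in LAD2. The differences were -0.05 ± 0.05 and 0.02 ± 0.07, and -0.01 ± 0.07 in P minus NP and 0.03 ± 0.03 in sP minus sNP. The 2 dimmer Abat probe sets gave 0.17 ± 0.14 and 0.21 ± 0.11 in P minus NP, both with an adjusted p of 0.999 by limma, and lay between -0.06 and 0.09 in HAD1 minus LAD1, HAD2 minus LAD2 and sP minus sNP. The dependence of the Abat difference on the pair had an F of 3.50 and an adjusted p of 0.103 by limma, so a difference between AA/ANA and the other pairs was not shown.

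**Figure D5:**
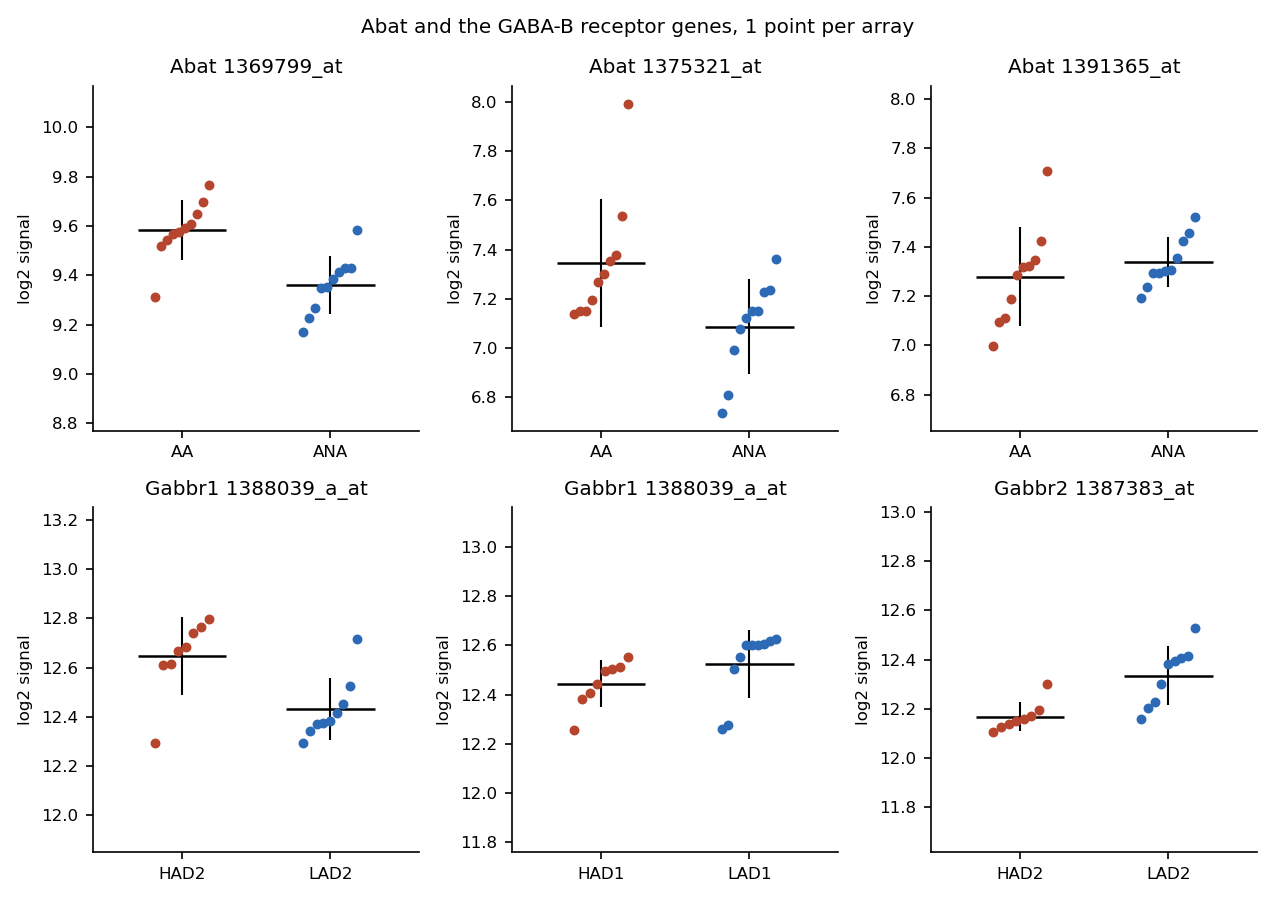
Log2 signal of the 3 Abat probe sets in AA and ANA (top), and of Gabbr1 in HAD2 and LAD2, Gabbr1 in HAD1 and LAD1, and Gabbr2 in HAD2 and LAD2 (bottom), 1 point per array, with the mean and standard deviation of each line. Each vertical axis spans the same range. The lines overlap in every panel, and HAD2 5 is the low HAD2 point for Gabbr1.

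Of the other uptake and breakdown genes, 12 were listed and 9 tested. In AA minus ANA, 1 was called higher: Glul, glutamine synthetase, the astrocytic enzyme that turns glutamate into glutamine, at 13.80 in AA and 13.40 in ANA (0.39 ± 0.07, adjusted p 0.00470 by limma). Without AA 1, AA 19 and ANA 20, Glul differed by 0.45 (adjusted p 0.000627 by limma), and Slc38a2, a glutamine transporter, was called higher as well (0.22 ± 0.06, adjusted p 0.0425 by limma). Without AA 5, Glul alone was called (0.40, adjusted p 0.00376 by limma). In HAD2 minus LAD2, 1 was called higher: Slc38a1, a neuronal glutamine transporter, at 13.23 in HAD2 and 13.03 in LAD2 (0.20 ± 0.04, adjusted p 0.00571 by limma). The other 3 pairs had 0 calls by limma, with 2, 1 and 0 genes at an unadjusted p under 0.05 in HAD1 minus LAD1, P minus NP and sP minus sNP. Without LAD1 37, 0 were called and 0 had an unadjusted p under 0.05. Their median difference was -0.02 in AA minus ANA and 0.07 in HAD2 minus LAD2. Of the 8 astrocyte markers, 0 were called in AA minus ANA, with a median difference of 0.04, and their mean level ran between 11.96 and 12.47 in AA and between 11.89 and 12.55 in ANA. Of the 6 endothelium and pericyte markers, Abcb1a was called higher in AA (0.41 ± 0.11, adjusted p 0.0498 by limma), as it was without AA 1, AA 19 and ANA 20 (0.51, adjusted p 0.00497) but not without AA 5 (0.40, adjusted p 0.0571). Without those 3 arrays 1 of the 6 microglia markers, Aif1, was called higher too (0.38, adjusted p 0.0251 by limma). The median difference of the 6 microglia markers was -0.03 in that setting. The part of these markers in the Abat value was not tested. The Gapdh 3′ minus 5′ signal, which rises as RNA or labelling gets shorter, averaged 0.501 in AA and 0.567 in ANA, and its part in the Abat value was not tested. Of the 10 tested neighbours of Abat on its chromosome, 0 were called in AA minus ANA by limma.

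Gabbr1, the subunit that binds GABA, was read by 5 tested probe sets, whose differences did not share a sign in HAD2 minus LAD2. The brightest ran in HAD2 from 12.29 over a median of 12.68 to 12.80, against 12.30 over 12.38 to 12.72 in LAD2. Without HAD2 5, every HAD2 array lay at 12.61 or above, and LAD2 12 was the LAD2 array above that level. Gabbr1 averaged 12.65 ± 0.16 in HAD2 and 12.43 ± 0.13 in LAD2 (SD), a difference of 0.22 ± 0.07 with an adjusted p of 0.0704 by limma. It was called without HAD2 5 (0.27, adjusted p 0.00556) or without LAD2 12 (0.25, adjusted p 0.0189), with all 91 arrays in 1 fit (adjusted p 0.0369) and with array weights (0.0170). HAD2 5 was the lowest HAD2 array and LAD2 12 the highest LAD2 array, so leaving out either of them favours a call. Leaving out any 1 of the other 15 of the 17 arrays gave no call, with an adjusted p up to 0.140 by limma. A second Gabbr1 probe set of like brightness gave -0.03 ± 0.06 in HAD2 minus LAD2, and the mean of the Gabbr1 probe sets gave 0.04, with an adjusted p of 0.800. That mean also holds dim probe sets that lay below the floor of this pair. Which Gabbr1 transcripts each probe set reads was not analysed here.

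In HAD1 the same Gabbr1 probe set ran from 12.25 over 12.47 to 12.55, against 12.26 over 12.60 to 12.62 in LAD1. Most LAD1 arrays lay above the HAD1 median, and LAD1 40 and LAD1 32 lay low. The difference was -0.08 ± 0.06, adjusted p 0.585 by limma, and -0.07 without LAD1 37. The HAD1/LAD1 difference minus the HAD2/LAD2 difference was -0.30 ± 0.09 for this Gabbr1 probe set, with an adjusted p of 0.0422 by limma, where 5.57% of all tested probe sets were called. It was the only 1 of the 13 called in that test. The value ran from -0.35 to -0.27 when each of the 35 arrays was left out in turn, and the call was lost without any 1 of 25 of them, LAD1 37 included (adjusted p 0.0512). It was also lost without a floor (0.0517) and with all arrays in 1 fit (0.0506). In the same test the second Gabbr1 probe set of like brightness gave -0.02 ± 0.08, adjusted p 0.954 by limma.

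In the other 3 pairs the brightest Gabbr1 probe set differed by 0.08 ± 0.10 in P minus NP, by -0.05 ± 0.05 in AA minus ANA and by -0.03 ± 0.04 in sP minus sNP. Of the 3 dimmer Gabbr1 probe sets, 2 were above the floor in the 3 pairs other than the HAD/LAD ones, and 1 in HAD2/LAD2. Their differences in those pairs lay between -0.11 and 0.10, and none was called.

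Gabbr2, the subunit that couples the receptor to its G protein, differed the other way in HAD2 minus LAD2. Its signal ran from 12.11 over a median of 12.16 to 12.30 in HAD2, against 12.16 over 12.38 to 12.53 in LAD2. HAD2 2 was the HAD2 array farthest into the LAD2 range. Gabbr2 averaged 12.17 ± 0.06 in HAD2 and 12.34 ± 0.12 in LAD2 (SD), a difference of -0.17 ± 0.05 with an adjusted p of 0.0643 by limma. It was called with an intensity trend and robust prior (adjusted p 0.0418), with array weights (0.0284), and without HAD2 2 (0.0412), LAD2 13 (0.0450) or LAD2 18 (0.0279). Leaving out any 1 of the other 14 of the 17 arrays gave no call, with an adjusted p up to 0.116 by limma. The Gapdh 3′ minus 5′ signal averaged 3.42 in HAD2 and 3.58 in LAD2, and its part in the Gabbr1 and Gabbr2 values was not tested. Markers of other cell types called in HAD2 minus LAD2 were the microglial P2ry12 (0.54), the vascular Abcb1a (0.60), Rgs5 (0.35) and Tek (-0.37) and the oligodendrocyte gene Opalin (-0.33), while 0 of the 6 neuronal and 0 of the 8 astrocyte markers were called by limma, with 0 and 1 at an unadjusted p under 0.05. The median difference was -0.06 over the 6 microglia markers. It was -0.01 over the 6 endothelium and pericyte markers and -0.01 over the 6 oligodendrocyte markers. The part of these markers in the receptor values was not tested. In the other 4 pairs the Gabbr2 difference lay between -0.05 and 0.00. A second Gabbr2 probe set stayed below the floor and was not tested.

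The partners and effectors of the GABA-B receptor gave no call with all arrays in. Of 18 listed genes, 13 were tested, among them Kctd12, an auxiliary subunit, Kcnj3 and Kcnj6, potassium channels that the receptor opens, and the G protein gene Gnao1. By limma 0 were called in each of the 5 pairs, and 4 had an unadjusted p under 0.05 in HAD1 minus LAD1, 4 in HAD2 minus LAD2, 1 in AA minus ANA and 0 in P minus NP and in sP minus sNP. Their median difference was 0.03 in HAD1 minus LAD1 and 0.07 in HAD2 minus LAD2. Without AA 1, AA 19 and ANA 20, 1 of the 13 was called lower in AA, Kctd12 (-0.37 ± 0.09, adjusted p 0.0166 by limma). Without LAD1 37 in HAD1 minus LAD1, and without AA 5 in AA minus ANA, 0 were called by limma, with 3 and 1 at an unadjusted p under 0.05. The 8 tested neighbours of Gabbr1 on its chromosome held 0 calls by limma in each pair.

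Gphn, the gephyrin gene, differed by 0.07 or less in every pair. In the arrays labelled sP its signal ran from 10.85 over a median of 10.93 to 10.99, against 10.94 over 10.98 to 11.06 in those labelled sNP. The lines overlapped. Gphn averaged 10.93 ± 0.05 in sP and 10.99 ± 0.05 in sNP (SD), a difference of -0.07 ± 0.03, with an unadjusted p of 0.0329 and an adjusted p of 0.995 by limma. In AA minus ANA the difference was 0.00 ± 0.04, with a 95% interval from -0.08 to 0.08. Of 20 listed partners of gephyrin and components of the inhibitory postsynapse, 15 were tested, among them Nlgn2, a postsynaptic adhesion protein, and Glrb, the glycine receptor subunit that binds gephyrin. By limma 0 were called in each pair, with 0, 3, 1, 2 and 1 at an unadjusted p under 0.05 in HAD1 minus LAD1, HAD2 minus LAD2, P minus NP, AA minus ANA and sP minus sNP. Without AA 1, AA 19 and ANA 20, 1 of the 15 was called lower in AA, Hap1, which takes part in GABA-A receptor transport (-0.27 ± 0.08, adjusted p 0.0461 by limma). Without AA 5 in that pair and without LAD1 37 in HAD1 minus LAD1, 0 were called by limma, with 3 and 1 at an unadjusted p under 0.05.

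A difference shared by the 5 pairs was tested as their average. Of all tested probe sets 2.08% were called and 0 of the 13 were. The lowest adjusted p was that of Gabbr2, at -0.05 ± 0.02 (adjusted p 0.490 by limma), and Slc32a1 had the largest average, 0.13 ± 0.10, with a 95% interval from -0.07 to 0.32. For dependence on the pair, where 8.07% of all tested probe sets were called, 0 of the 13 were, with the lowest adjusted p for Abat (0.103) and then Gabbr1 (F 3.37, adjusted p 0.118).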

How the data were processed

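Arrays were Affymetrix, 1 per animal, made with a 2-cycle protocol from 25 ng of total RNA, per the labels' protocols. The deposited values are log2 signals that the authors made with RMA, per the submitters' processing notes. That method subtracts background, forces a common distribution on the arrays handled together and reduces the probes to 1 value per probe set. Which arrays were handled together, and the RMA version, are not stated in the sources used here. Arrays normalized together share a distribution, and these differ between pairs, so levels were compared within a pair alone. The table had 0 columns without a sample.

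Samples were grouped by the line in their labels. Of 31099 probe sets, 57 controls were left out, and 20826 had 1 gene symbol in the platform annotation. A probe set was tested if, in at least 1 pair, its mean over all arrays of the pair was at or above that pair's 40th percentile. Each pair was fitted alone in limma (lmFit and eBayes), 2-sided, with Benjamini-Hochberg adjustment over the 20892 tested probe sets. The average over pairs and the F test with 4 numerator degrees of freedom used 1 fit of all 91 arrays, and the difference between the HAD/LAD pairs 1 fit of 35 arrays. The fits were tested on simulated data. Lists used the brightest probe set of each gene. Correlations used deviations from line means and 100000 permutations within lines. All member probe sets were named, and per list and pair up to 4 called genes and, for likeness, 3 genes per member, of which the text gives the first for 5 members. Members and lists were chosen with earlier results of these data known. The number of arrays limits the precision.

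Gene names and neighbours came from a RefSeq table of GRCr8. Its coordinates ordered the neighbours and set where the Gad1 and Gabbr1 stretches end. Promoter sequences, found for 7 of the 8 members and not for Abat, came from RefSeq. Alternatives were other floors, scalings, probe set choices, priors and weights, all arrays in 1 fit, a replicate block and each array left out. Fits ran in R 4.3.3 with limma 3.58.1 and, for reading and writing tables, release 1.17.8 of the data.table package. Correlations, promoter searches and plots ran in Python 3.11.15 with scipy 1.17.1, pandas 2.3.3, numpy 2.4.6 and, for plots, matplotlib 3.10.9.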

Additional observations from a re-analysis of the deposited data

Results flagged for a closer look

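Among the brightest tested probe sets of the 7 genes, an array stood apart from the others of its line in 9 of 70 groups. The nominal rate of that flag is about 1 in 20. Its share over all tested probe sets was not computed, and the groups share arrays, so the count is not a result about these genes. In P 10, Gad2 was 12.02 and Slc32a1 12.09, far above the next P arrays at 10.69 and 10.71. In ANA 16, Gad2 was 8.92, below the next ANA array at 9.55, and in ANA 20, Slc32a1 was 10.46, below the next at 11.06. Abat in sNP 9 was 9.12, below the next sNP array at 9.21. Gabbr2 was 12.30 in HAD2 2, above the next HAD2 array at 12.20. It was 11.69 in NP 4, below the next at 11.92, and 11.91 in sP 2, below the next at 12.19. Gabbr1 in HAD2 5 was 12.29, below the next HAD2 array at 12.61. For the brightest Gabbr1 probe set, the HAD1 minus LAD1 difference differed from the HAD2 minus LAD2 difference by -0.30 on the log2 scale. That difference was itself tested, and the second Gabbr1 probe set of like brightness gave -0.02.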

How the results depend on the processing

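Under the alternatives tried, 0 member genes were called in HAD1 minus LAD1, P minus NP, sP minus sNP and the average, as in the values reported. In HAD2 minus LAD2, against 0 reported, 1 gene was called with all arrays in 1 fit, 1 with an intensity trend and robust prior, 2 with array weights, and 0 to 1 when each array was left out. In AA minus ANA, against 1 reported, 0 were called without a floor, 0 for the mean of the probe sets, 0 after quantile normalization, and 0 to 1 when each array was left out. For dependence on the pair, against 0 reported, 1 gene (Gabbr1, adjusted p 0.0412 by limma) was called with 1 variance per pair and array weights, and 2 (Abat at 0.0405 and Gabbr1 at 0.00997) without the P and NP arrays. For HAD1/LAD1 minus HAD2/LAD2, against 1 reported, 0 were called without a floor, 0 with all arrays in 1 fit, and 0 to 1 when each array was left out, a setting added after seeing the data. No called value changed its sign, and the cause of these changes was not tested. Counts over all probe sets ran, beside those reported, from 325 to 1256 in HAD1 minus LAD1 (877), 573 to 1635 in HAD2 minus LAD2 (1317), 140 to 1469 in AA minus ANA (362), 151 to 851 for the average (434), 690 to 2233 for dependence on the pair (1687) and 538 to 1253 for the difference of the HAD/LAD pairs (1163), the lowest where 1 probe set per gene was fitted, so fewer were tested. Leaving out LAD1 37 raised the HAD1 minus LAD1 count to 1384, and leaving out each array of AA and ANA gave 251 to 650. P and NP arrays, and sP and sNP arrays, share numbers in the labels. Same-numbered arrays deviated together with r from -0.69 to 0.67 and from -0.41 to 0.30. These ranges do not show whether the numbers pair the animals, and the reported fits took the arrays as unpaired. With the replicate block, 0 member genes were called in either pair. The average and the F test without the arrays that stand apart were added after seeing the data and gave 0 calls.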
